A study of Saccharomyces cerevisiae with 21 samples.

Results

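The 10 histone genes of Saccharomyces cerevisiae were followed through 7 conditions of a nascent RNA-seq experiment. They were chosen by open reading frame identifier and not by any measured value, though with earlier results of these data known. They are 10 of the 7126 features quantified. The members are the H2A genes HTA1 (YDR225W) and HTA2 (YBL003C), the H2B genes HTB1 (YDR224C) and HTB2 (YBL002W), and the H3 genes HHT1 (YBR010W) and HHT2 (YNL031C). They also include the H4 genes HHF1 (YBR009C) and HHF2 (YNL030W), the H2A variant gene HTZ1 (YOL012C) and the linker histone gene HHO1 (YPL127C). All 10 passed the filter on low counts.

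Nascent RNA was purified with RNA polymerase II through a 3xFLAG tag on its subunit Rpb3, and the question was how the chromatin remodeller RSC and the factor Rap1 shape transcription at promoters. Sth1 is the ATPase of RSC, and Rap1 is a general regulatory factor that activates ribosomal protein and glycolytic genes. The conditions were STH1-AID cells, RAP1-AID cells and cells with both degrons (RAP1-AID/STH1-AID), each given 500 µM IAA (3-indole-acetic acid, an auxin) for 2 h or the solvent DMSO, and untreated wild type (WT), with 3 biological replicates each. All strains were MATa derivatives of BY4741 with RPB3-3xFLAG and grew exponentially in rich medium. The degron strains carried osTIR, the plant protein that links auxin to protein degradation, under the GPD1 promoter at LEU2, and the 3V5-IAA7 degron tag on STH1, RAP1 or both. WT carried neither osTIR nor a degron tag and received no DMSO, so a control against WT differs in all of these at once. The labels name 1 strain for each genotype, and nothing in the labels or methods says which replicates were grown together.

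Between 18289832 and 23182315 expected counts per library fell on genes. The nascent RNA-seq carried no external standard, so all levels below are relative to the other transcripts of the same library, and a level over an unsynchronised culture cannot separate fewer cells transcribing a gene from less transcription per cell. Levels are given as CPM, a gene's counts relative to the library total after TMM scaling, a method that takes the bulk of genes as level. The nascent RNA of STH1 itself averaged 2272 ± 172 CPM in STH1-AID IAA cells and 1153 ± 63.1 CPM in STH1-AID DMSO cells (SD, n = 3 each), and that of RAP1 was 706, 615 and 795 CPM in RAP1-AID IAA cells, against 636, 538 and 621 CPM in RAP1-AID DMSO cells. IAA removes the protein and not the RNA, so these levels do not check the depletion. For the MATa label, 6 a-specific genes summed to between 729 and 1556 CPM in every library, while 3 alpha-specific genes summed to between 0.0519 and 11.1 CPM. Not every a-specific gene was high: in WT cells MFA1 averaged 0.145 CPM, MFA2 1.66 and AGA2 3.7, against 253 for BAR1. These 3 low levels were under that of the alpha-specific gene STE3 in RAP1-AID IAA cells (8.04 CPM).

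Histones package DNA into nucleosomes, each of which holds a core of H2A, H2B, H3 and H4. Budding yeast keeps a pair of genes for each core histone, arranged as divergent couples that share a promoter region: an H2A gene faces an H2B gene, and an H3 gene faces an H4 gene. Core histone genes are transcribed mainly in S phase, when DNA is replicated. Spt10 binds paired upstream activating sequences in their promoters, and the HIR complex represses the HTA1-HTB1, HHT1-HHF1 and HHT2-HHF2 couples outside S phase, whereas HTA2-HTB2 is not under HIR control. HTZ1 encodes H2A.Z, which the SWR1 complex places beside promoters, and HHO1 encodes a protein related to linker histone H1.

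The 4 shared regions are shown first because every core histone gene is transcribed from one of them. In the R64 assembly they are chrIV:914713-915529 between HTB1 and HTA1 (817 bases), chrII:235793-236491 between HTA2 and HTB2 (699 bases), chrII:255685-256330 between HHF1 and HHT1 (646 bases), and chrXIV:576051-576726 between HHT2 and HHF2 (676 bases). Each extends from start codon to start codon, since the RefSeq gene models of these genes begin there. The core of the Spt10 site was searched as TTCCNNNNNNTTCNC on both strands, and every one of the 4 regions held it. The stretches below are given on the forward strand with 15 bases on each side, and the capitals mark the match, which appears as its reverse complement where it lies on the reverse strand.
HTB1-HTA1 (chrIV:915099-915166): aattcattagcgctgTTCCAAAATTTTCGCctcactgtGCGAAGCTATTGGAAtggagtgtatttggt
HTA2-HTB2 (chrII:236093-236137): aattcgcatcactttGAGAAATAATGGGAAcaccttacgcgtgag
HHF1-HHT1 (chrII:255929-255973): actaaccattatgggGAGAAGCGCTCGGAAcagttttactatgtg
HHT2-HHF2 (chrXIV:576331-576375): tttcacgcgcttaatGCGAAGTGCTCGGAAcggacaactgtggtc

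The HTB1-HTA1 region held 2 matches, on opposite strands, and the other 3 held 1 each, all on the reverse strand. The matches lay between 260 and 425 bases from the start codon of the left gene and between 367 and 402 bases from that of the right gene. Of all 1527 regions between divergent protein-coding genes, 70 held a match (4.58%), and none held more than 2. Among the 212 such regions with lengths in the range of the 4 histone regions, 22 held a match (10.4%). Both counts include the 4 histone regions. The core searched is that of the histone upstream activating sequence itself, so its presence in these regions is not an independent finding. The regions beside HTZ1 and HHO1, which face PLB3 and NAN1, held none. The Rap1 core, searched on both strands as CACCC, any 2 bases and ACA, was found in none of these 6 regions.

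Close to the start codons, the short elements linked to RSC were unevenly spread over the members. In the 300 bases from 250 before to 50 after the start codon, AAAAAAA on either strand was found in 2 of the 8 core genes, HTB2 and HHF2, against 49.9% of 6001 genes. CGCG was found in 4 of 8 (HTB2, HHF1, HHT2 and HHF2), against 26.1% of genes, and CGGG on either strand in 3 of 8 (HTA1, HHT1 and HHF1), against 42.1%. Neither the Spt10 core (1.48% of genes) nor the Rap1 core (1.03%) was found in this window of any member. Over the full shared regions, every core region held CGCG (2 to 5 matches) and CGGG (1 to 5), and all but HHF1-HHT1 held AAAAAAA. The share of other divergent regions holding these elements was not counted. These matches describe the letters only and do not show binding.

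The coding sequences limit how well 2 copies can be told apart. The pair of H4 genes shared 97.4% of 312 coding bases, the H2A genes 93.7% of 399, the H3 genes 93.2% of 411 and the H2B genes 87.9% of 396. The longest stretch without a difference was 80 bases in H4 and 35 bases in H2B. The longest and the shortest of these runs are shown on the coding strand, with the shared run in capitals and 10 flanking bases on each side.
HHF1 (chrII:255505-255604, reverse strand): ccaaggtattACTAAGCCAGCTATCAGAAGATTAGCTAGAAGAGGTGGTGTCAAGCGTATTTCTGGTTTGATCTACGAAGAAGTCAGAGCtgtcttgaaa
HHF2 (chrXIV:576807-576906, forward strand): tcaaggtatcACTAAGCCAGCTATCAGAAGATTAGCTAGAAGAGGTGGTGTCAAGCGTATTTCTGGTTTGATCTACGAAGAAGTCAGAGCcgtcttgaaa
HTB1 (chrIV:914473-914527, reverse strand): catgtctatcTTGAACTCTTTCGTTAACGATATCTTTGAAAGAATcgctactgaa
HTB2 (chrII:236677-236731, forward strand): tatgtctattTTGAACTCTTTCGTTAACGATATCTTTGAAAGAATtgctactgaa

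The expected counts of HTB1, HTB2, HTZ1 and HHO1 were whole numbers in all 21 libraries. Those of the H2A genes were not whole in 18 libraries, those of the H3 genes in 20 and those of the H4 genes in 21, so the authors' quantification had divided reads between these copies. The split between 2 copies of H2A, H3 or H4 is therefore less certain than their sum, and the sums are given with the single genes.

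The core histone genes were among the most transcribed genes of WT cells. By TPM, which is scaled to gene length, HHT2 averaged 2649 and HHF2 2501 in WT and ranked 21 and 26 of 6007 protein-coding genes. HTB1 (1251 TPM) and HTB2 (1249 TPM) followed at 60 and 61, then HHF1 (936 TPM), HHT1 (830 TPM), HTA1 (772 TPM) and HTA2 (523 TPM) at rank 222. HHO1 (99.3 TPM) and HTZ1 (86.6 TPM) were nearer the median of all genes, 55.4 TPM. Summed over both copies, WT cells had 3479 ± 338 TPM of H3, 3437 ± 135 of H4, 2500 ± 202 of H2B and 1295 ± 69.4 of H2A (SD, n = 3). The H2A sum was the lowest of the 4 in every condition, with means between 451 TPM in STH1-AID IAA cells and 1536 TPM in RAP1-AID IAA cells.

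The 8 core histone genes together were lowest in Sth1-depleted cells. By CPM they were highest on average in co-depleted cells, where they overlapped WT, whereas their summed TPM averaged 9946 in RAP1-AID/STH1-AID IAA, 10423 in RAP1-AID IAA and 10711 in WT. Their summed CPM averaged 985 ± 131 in STH1-AID IAA, 1541 ± 120 in STH1-AID DMSO, 1770 ± 138 in RAP1-AID IAA, 1563 ± 169 in RAP1-AID DMSO, 2278 ± 485 in RAP1-AID/STH1-AID IAA, 1798 ± 274 in RAP1-AID/STH1-AID DMSO and 2172 ± 161 in WT (SD, n = 3 each). In the order of these means, the libraries of neighbouring conditions overlapped except at 2 steps, from WT to RAP1-AID/STH1-AID DMSO and from STH1-AID DMSO to STH1-AID IAA. STH1-AID IAA was the lowest condition for each of the 8 core genes. Only for HHT2 did its libraries overlap those of the condition next above. The share of all genes lowest in STH1-AID IAA, or separated there, was not counted.

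**Figure D1:**
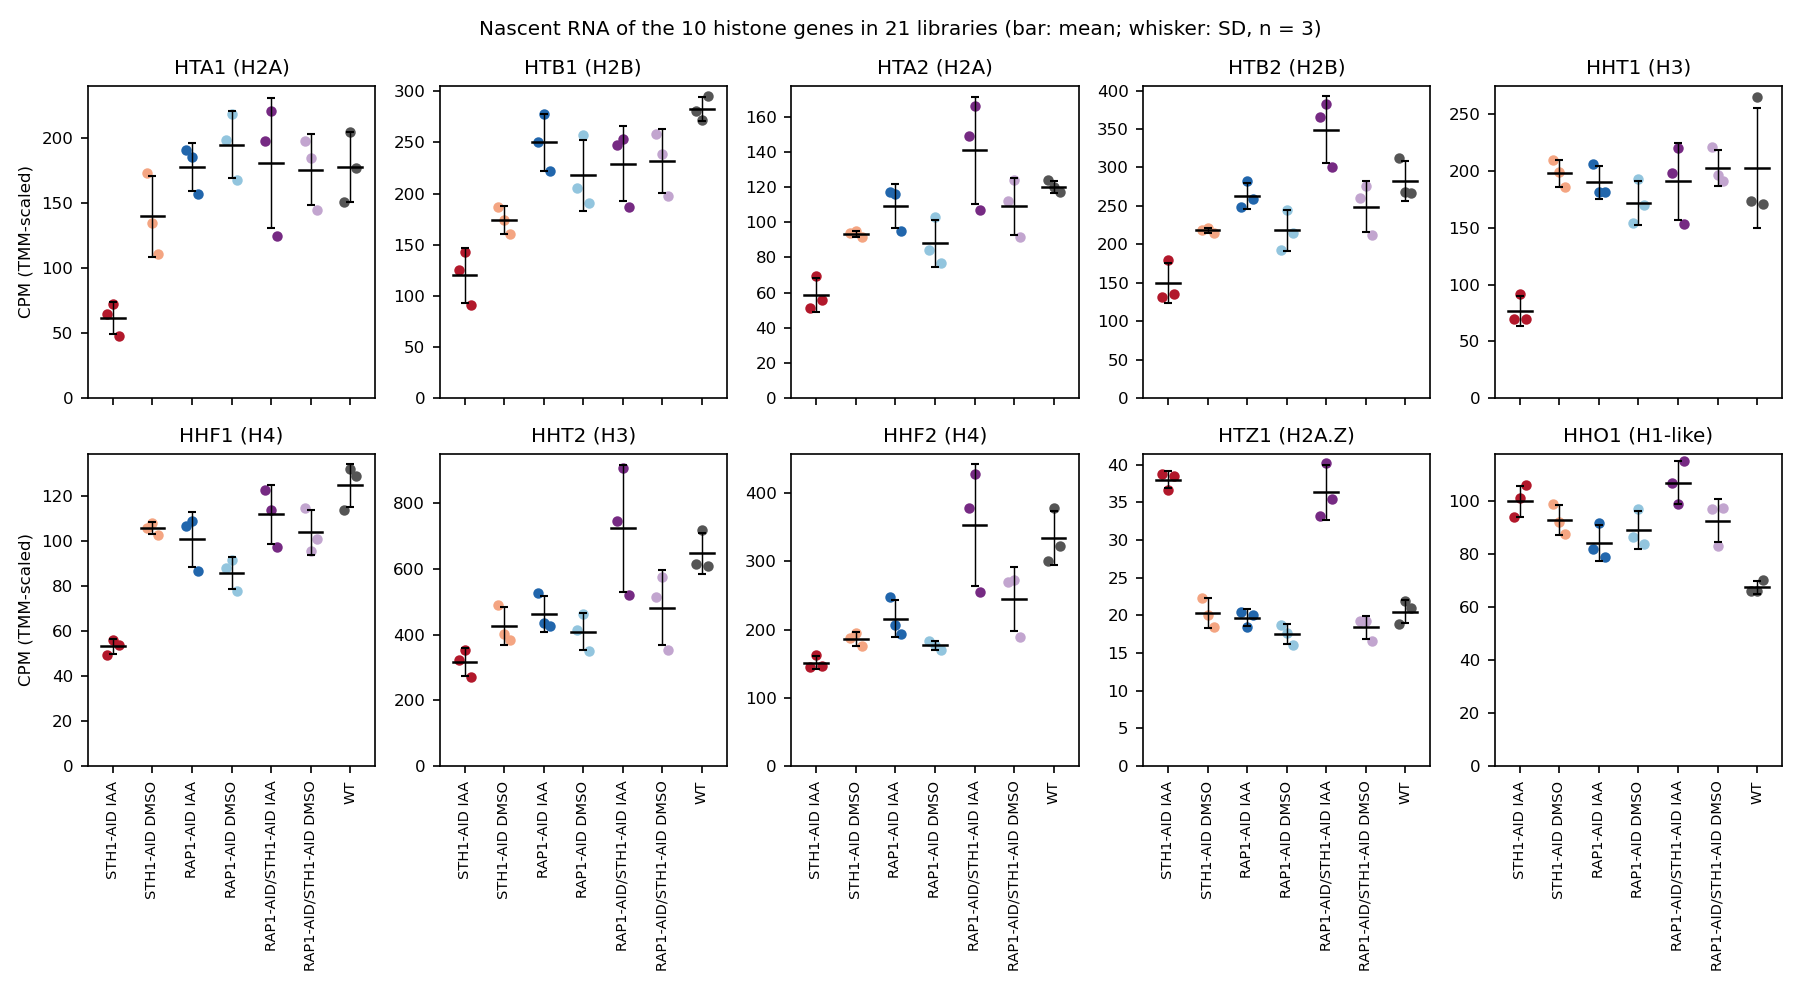
Nascent RNA of the 10 histone genes, in TMM-scaled CPM from 0, for the 7 conditions on the horizontal axis; points are the 3 replicates, bars the means and whiskers the SD. All 8 core genes are lowest in STH1-AID IAA cells, HTZ1 is highest in STH1-AID IAA and RAP1-AID/STH1-AID IAA cells (means 38.0 and 36.3 CPM), and HHO1 is lowest in WT (67.4 CPM).

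Depletion of Sth1 lowered nearly all core histone genes relative to other transcripts, and raised HTZ1. In STH1-AID IAA against STH1-AID DMSO cells, 7 of the 10 members fell, 1 rose and 2 did not pass the test (edgeR quasi-likelihood test, Benjamini-Hochberg adjusted p under 0.05). Many genes moved in this comparison: 40.9% of the 5742 protein-coding genes tested were called lower and 35.9% higher. The median log2 fold change was -0.61 over the 8 core genes and -0.06 over all genes.

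The largest decreases were in the HHT1-HHF1 couple and in HTA1. HHT1 had 69.3, 91.9 and 69.5 CPM in STH1-AID IAA cells, against 210, 199 and 186 CPM in STH1-AID DMSO cells, so that every IAA library was under 100 CPM and the groups were far apart. Its log2 fold change was -1.37 ± 0.16 (SE), with an edgeR adjusted p of 2.07e-07. Its divergent partner HHF1 had 49.4, 56.2 and 54.0 CPM with IAA, against 106, 108 and 103 CPM with DMSO (log2 fold change -0.99 ± 0.10, edgeR adjusted p = 5.42e-08). HHF1 had a small spread in both groups, with an SD of 3.44 CPM with IAA and 2.69 CPM with DMSO.

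HTA1 had 64.6, 72.3 and 48.1 CPM in STH1-AID IAA cells, against 173, 135 and 111 CPM in STH1-AID DMSO cells (log2 fold change -1.18 ± 0.20, edgeR adjusted p = 2.88e-05). Its partner HTB1 had 125, 143 and 90.9 CPM with IAA, against 187, 174 and 160 CPM with DMSO (-0.54 ± 0.15, adjusted p = 0.00351). Replicate 3 was the lowest of its group for both genes with and without IAA, and the groups did not overlap for either gene.

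HTA2 and HTB2, the couple outside HIR control, fell by similar amounts. HTA2 had 51.0, 69.2 and 55.6 CPM in STH1-AID IAA cells, against 93.8, 94.8 and 91.8 CPM in STH1-AID DMSO cells (log2 fold change -0.67 ± 0.15, edgeR adjusted p = 0.000433). HTB2 had 132, 179 and 135 CPM with IAA, against 218, 221 and 215 CPM with DMSO (-0.55 ± 0.13, adjusted p = 0.000522). Replicate 2 was the highest of the IAA libraries for both genes and still lay under every DMSO library.

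The most transcribed couple changed least. HHT2 had 323, 354 and 270 CPM in STH1-AID IAA cells, against 491, 402 and 383 CPM in STH1-AID DMSO cells (log2 fold change -0.43 ± 0.19, edgeR adjusted p = 0.0416). This call was lost without STH1-AID DMSO replicate 1 (adjusted p = 0.168), STH1-AID IAA replicate 1 (0.0689) or STH1-AID IAA replicate 3 (0.149), and with DESeq2's size factors (0.0663). HHF2 had 145, 162 and 146 CPM with IAA, against 188, 195 and 176 CPM with DMSO. Its log2 fold change of -0.30 ± 0.16 did not pass (adjusted p = 0.0841), although no IAA library reached the DMSO range. It passed when only the 6 libraries compared were fitted (adjusted p = 0.00748) and when libraries were scaled to their total (-0.55, adjusted p = 0.00356).

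Summed over copies, all 4 core histones were lower after Sth1 depletion. H2A reads had a log2 fold change of -0.96 ± 0.17, H3 of -0.67 ± 0.17, H2B of -0.55 ± 0.13 and H4 of -0.52 ± 0.13 (SE, edgeR adjusted p between 3.79e-05 and 0.00167).

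HTZ1 moved the other way. It had 38.8, 36.6 and 38.5 CPM in STH1-AID IAA cells, against 22.3, 20.0 and 18.4 CPM in STH1-AID DMSO cells (log2 fold change 0.91 ± 0.10, edgeR adjusted p = 1.13e-07). Nascent RNA of this H2A variant was thus 1.88-fold higher, while that of both H2A genes was lower. HHO1 had 94.0, 101 and 106 CPM with IAA, against 98.8, 92.2 and 87.4 CPM with DMSO, and these groups overlapped (0.11 ± 0.09, adjusted p = 0.249).

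Scaling sets the zero of these comparisons. With libraries scaled to their total in place of TMM, the median of all genes on Sth1 depletion was -0.31 and 8 members were called lower, with HTZ1 still called higher. The direction of each called member held under every scaling tried.

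Rap1 depletion moved the histone genes little. None of the 10 members passed the test in RAP1-AID IAA against RAP1-AID DMSO cells with edgeR, at a background of 12.8% of genes called higher and 13.3% lower, and DESeq2's test also called none. The 3 genes with an unadjusted p under 0.05 were HTB2 (0.0388), HTA2 (0.0448) and HHF1 (0.0346). The median log2 fold change of the 8 core genes was 0.22, against 0.01 over all genes, and 7 of the 8 values were above 0.

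HTB2 had 249, 282 and 259 CPM in RAP1-AID IAA cells, against 193, 245 and 214 CPM in RAP1-AID DMSO cells, and HHF2 had 247, 206 and 194 CPM against 183, 177 and 170 CPM. In both genes the groups did not overlap, with log2 fold changes of 0.28 ± 0.12 (edgeR adjusted p = 0.11) and 0.29 ± 0.15 (adjusted p = 0.181). No other member's groups separated, and the share of all genes that did was not counted. HTA2 had 117, 116 and 95.1 CPM with IAA, against 84.2, 103 and 77.0 CPM with DMSO (0.32 ± 0.15, adjusted p = 0.122). In this strain same-numbered libraries deviated together, and with the replicate number as a block HTA2 (adjusted p = 0.027) and HTB2 (adjusted p = 0.0447) were called higher, 2 members in place of 0.

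The other core genes ranged from -0.14 ± 0.20 for HTA1 to 0.23 ± 0.10 for HHF1. HTZ1 had 20.5, 18.4 and 20.1 CPM in RAP1-AID IAA cells, against 18.7, 17.7 and 16.1 CPM in RAP1-AID DMSO cells, and the groups overlapped (0.17 ± 0.10, edgeR adjusted p = 0.228). HHO1 had between 78.8 and 91.9 CPM with IAA, against 83.6 to 97.0 CPM with DMSO. When libraries were scaled to their total, the median of all genes moved to 0.13 and 4 members were called higher: HTA2, HTB2, HHF1 and HTZ1. The summed TPM of the 8 core genes, which is not scaled by TMM, was 11299, 10832 and 9137 in RAP1-AID IAA cells, against 8064, 8555 and 7789 in RAP1-AID DMSO cells, and these did not overlap.

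Co-depletion of Rap1 and Sth1 did not lower a single core histone gene past the threshold. In RAP1-AID/STH1-AID IAA against RAP1-AID/STH1-AID DMSO cells, 6 members were called higher and 0 lower, against 32.2% and 37.5% of all genes. DESeq2's test gave the same counts, and the only values below 0 were those of HHT1 (unadjusted p = 0.567) and HTB1 (0.915). The 6 were HTA2, HTB2, HHT2, HHF2, HTZ1 and HHO1. The 4 that did not pass were HTA1, HTB1, HHT1 and HHF1, that is, both members of 2 couples. The median log2 fold change of the 8 core genes was 0.23, and that of all genes was -0.05.

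HHT2 had 744, 906 and 520 CPM in RAP1-AID/STH1-AID IAA cells, against 515, 575 and 354 CPM in RAP1-AID/STH1-AID DMSO cells (log2 fold change 0.59 ± 0.19, edgeR adjusted p = 0.00868). Its partner HHF2 had 378, 428 and 255 CPM, against 269, 272 and 189 CPM (0.54 ± 0.15, adjusted p = 0.00464). For both genes replicate 3 was the lowest with and without IAA, and the groups overlapped only through IAA replicate 3.

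HTB2 had 365, 382 and 300 CPM in RAP1-AID/STH1-AID IAA cells, against 260, 276 and 212 CPM in RAP1-AID/STH1-AID DMSO cells (log2 fold change 0.48 ± 0.12, edgeR adjusted p = 0.00196). HTA2 had 149, 166 and 107 CPM, against 112, 124 and 91.8 CPM (0.37 ± 0.15, adjusted p = 0.0331). HTB2 was above every control library, whereas the lowest HTA2 library with IAA was under the 2 higher control libraries. The HTA2 call was lost without RAP1-AID/STH1-AID IAA replicate 1 (adjusted p = 0.0968) or replicate 2 (0.195), or without RAP1-AID/STH1-AID DMSO replicate 1 (0.0503) or replicate 3 (0.169), and when only these 6 libraries were fitted (0.0851). The HHT2 call was lost without IAA replicate 2 (0.0746) or DMSO replicate 3 (0.0648).

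The couples that fell most on Sth1 depletion were level here. HHT1 had 198, 220 and 153 CPM in RAP1-AID/STH1-AID IAA cells, against 221, 197 and 191 CPM in RAP1-AID/STH1-AID DMSO cells (log2 fold change -0.09 ± 0.15, edgeR adjusted p = 0.615). HHF1 had 123, 114 and 97.6 CPM, against 115, 95.6 and 101 CPM (0.10 ± 0.10, adjusted p = 0.391). HTA1 had 198, 221 and 125 CPM, against 198, 185 and 145 CPM (0.04 ± 0.20), and HTB1 had 247, 253 and 187 CPM, against 258, 239 and 198 CPM (-0.02 ± 0.15). All 4 pairs of groups overlapped. The sign of values this small depended on the scale: by TPM, HTB1 had 978, 951 and 802 in IAA cells, against 1177, 1098 and 998 in DMSO cells, and HHT1 had 733, 773 and 615, against 939, 845 and 895, with no overlap in either gene.

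Summed over copies, H3 (0.42 ± 0.17, edgeR adjusted p = 0.034) and H4 (0.42 ± 0.13, adjusted p = 0.00888) were called higher on co-depletion. H2B (0.26 ± 0.13, adjusted p = 0.0765) and H2A (0.17 ± 0.17, adjusted p = 0.36) did not pass. The single-gene calls changed with scaling to library totals, though DESeq2's size factors left 6 members called higher. With libraries scaled to their total the median of all genes was -0.26, and the adjusted p was 0.069 for HHT2, 0.0655 for HHF2, 0.0664 for HTB2 and 0.371 for HTA2, so that HTZ1 was the only member still called.

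HTZ1 had 33.2, 40.2 and 35.4 CPM in RAP1-AID/STH1-AID IAA cells, against 19.2, 19.3 and 16.6 CPM in RAP1-AID/STH1-AID DMSO cells (log2 fold change 0.98 ± 0.10, edgeR adjusted p = 9.81e-08). HHO1 had 107, 98.8 and 115 CPM, against 97.0, 83.2 and 97.5 CPM (0.21 ± 0.09, adjusted p = 0.0374). The HTZ1 increase kept its call under each alternative except the limit of 1 on the log2 fold change, whereas the HHO1 difference was 0.00 with libraries scaled to their total. The HHO1 call was also lost without RAP1-AID/STH1-AID IAA replicate 1 (adjusted p = 0.0686) or replicate 3 (0.126), without RAP1-AID/STH1-AID DMSO replicate 2 (0.194), with no filter on low counts (0.0563) and when only these 6 libraries were fitted (0.0829).

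The core histone genes responded differently to IAA in the double-degron strain and in the STH1-AID strain, and this difference was tested as such. The change on co-depletion minus the change on Sth1 depletion was called higher for 7 members and lower for 0, against 19.6% and 10.5% of all genes. Its median was 1.04 on the log2 scale over the 8 core genes and 0.08 over all genes. HHT1 differed by 1.28 ± 0.22 (SE, edgeR adjusted p = 0.000203), HTA1 by 1.22 ± 0.28 (0.00285), HHF1 by 1.09 ± 0.15 (1.3e-05), HTB2 by 1.04 ± 0.18 (0.000175), HTA2 by 1.04 ± 0.21 (0.000912), HHT2 by 1.02 ± 0.26 (0.00637) and HHF2 by 0.84 ± 0.22 (0.00703). HTB1 differed by 0.52 ± 0.21 and did not pass (adjusted p = 0.0731). HTZ1 (0.07 ± 0.14) and HHO1 (0.10 ± 0.12) did not pass either. The count was 7 or 8 under each scaling, with the block and with DESeq2's test.

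Set against Rap1 depletion, the co-depletion differed for HTZ1. The change on co-depletion minus that on Rap1 depletion was 0.81 ± 0.14 for HTZ1 (edgeR adjusted p = 0.000112), and the other 9 members did not pass, against 25.7% of genes called higher and 29.3% lower. The 8 core genes ranged from -0.23 ± 0.22 for HHT1 to 0.41 ± 0.26 for HHT2. HHO1 was close to the threshold (0.29 ± 0.12, adjusted p = 0.0508) and passed with DESeq2's size factors (adjusted p = 0.0256). Scaled to library totals, where the median of all genes was -0.35, HTB1, HHT1 and HHF1 were called lower. Both differences use the same double-degron libraries and are not independent of each other.

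**Figure D2:**
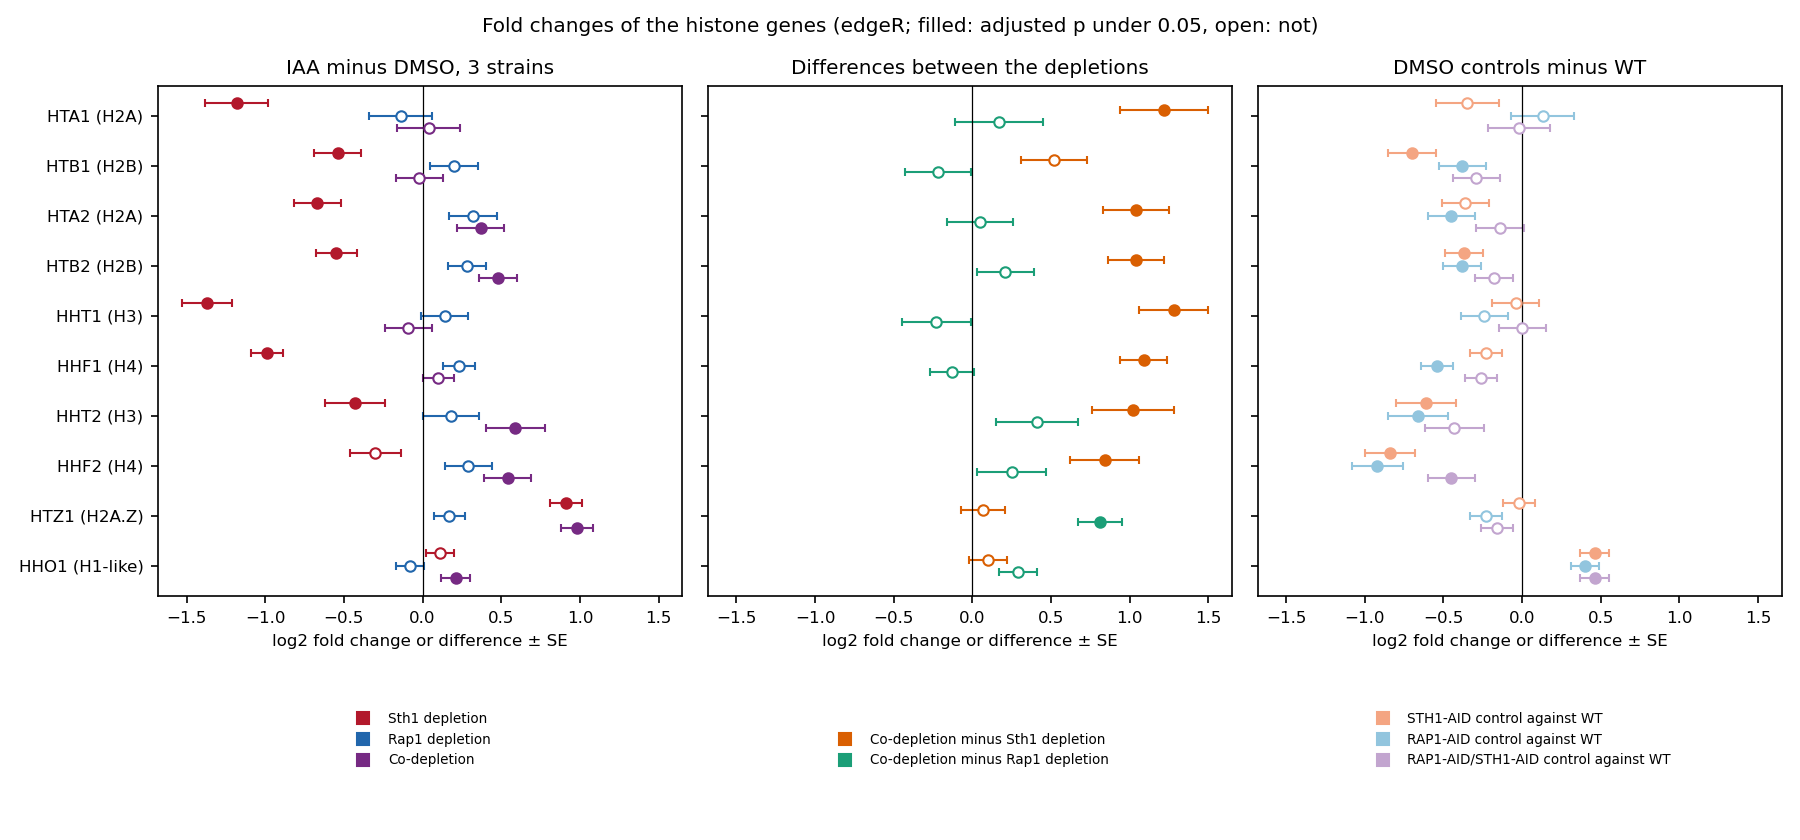
Log2 fold changes (± SE, edgeR) of the 10 histone genes for IAA minus DMSO in the 3 degron strains, for the differences between those changes, and for each DMSO control minus WT; filled symbols have an adjusted p under 0.05. Core genes lie left of 0 on Sth1 depletion (-1.37 to -0.30) and between -0.09 and 0.59 on co-depletion, with HHT1 and HTB1 just left of 0, while HTZ1 is at 0.91 and 0.98.

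The log2 ratio of 2 genes in the same library is free of the scaling and shows whether a couple moved together. With 3 libraries against 3, the exact permutation test (two-sided, 20 arrangements) cannot give a p below 0.1, and 10 of the 24 ratios tested reached that smallest value (exact p = 0.1, Benjamini-Hochberg 0.24), so none can pass.

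Within divergent couples the ratio changed most at HTA1/HTB1. It was -0.96, -0.99 and -0.92 in STH1-AID IAA cells, against -0.12, -0.37 and -0.53 in STH1-AID DMSO cells, a mean difference of -0.62. HTA1 was thus lower relative to the gene that shares its promoter region in these libraries, but its reads were divided with HTA2. In RAP1-AID cells the same ratio was -0.39, -0.58 and -0.50 with IAA, against -0.04, -0.23 and -0.19 with DMSO. In RAP1-AID/STH1-AID cells it overlapped between IAA and DMSO (means -0.37 and -0.40).

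HHT1/HHF1 was 0.49, 0.71 and 0.37 in STH1-AID IAA cells, against 0.99, 0.88 and 0.86 in STH1-AID DMSO cells, a difference of -0.38 without overlap. HTA2/HTB2 differed by -0.12 on Sth1 depletion, also without overlap, since its control libraries lay within an SD of 0.01. HHT2/HHF2 overlapped in all 3 strains, with differences between -0.13 and 0.06. On Sth1 depletion, the H2A or H3 gene was thus lower relative to its H2B or H4 partner in every library of 3 couples. Each of these couples holds at least 1 gene whose reads were divided between copies, and no ratio could pass the test. How often the ratios of other gene pairs separate in this way was not counted, here or for the paralogues below.

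Between paralogues, the ratios of H3 and H4 were lower on Sth1 depletion. HHT1/HHT2 was -2.22, -1.95 and -1.96 in STH1-AID IAA cells, against -1.23, -1.01 and -1.04 in STH1-AID DMSO cells, and -1.91, -2.04 and -1.76 in RAP1-AID/STH1-AID IAA cells, against -1.22, -1.54 and -0.90 in RAP1-AID/STH1-AID DMSO cells. These are mean differences of -0.95 and -0.68, both without overlap. HHF1/HHF2 differed by -0.69 on Sth1 depletion without overlap and by -0.42 on co-depletion with overlap. On Rap1 depletion the 2 ratios overlapped, with differences of -0.04 and -0.05. Their division of reads is uncertain, as noted for these copies above.

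HTB1/HTB2, whose reads were not divided, was -0.56, -0.59 and -0.68 in RAP1-AID/STH1-AID IAA cells, against -0.01, -0.21 and -0.10 in RAP1-AID/STH1-AID DMSO cells (difference -0.51). On Sth1 depletion its difference was 0.01, with overlap. HTA1/HTA2 was lower with IAA in all 3 strains, by -0.49, -0.45 and -0.34, without overlap in the last 2. TPM in place of CPM left the direction of all 24 ratios as it was.

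**Figure D3:**
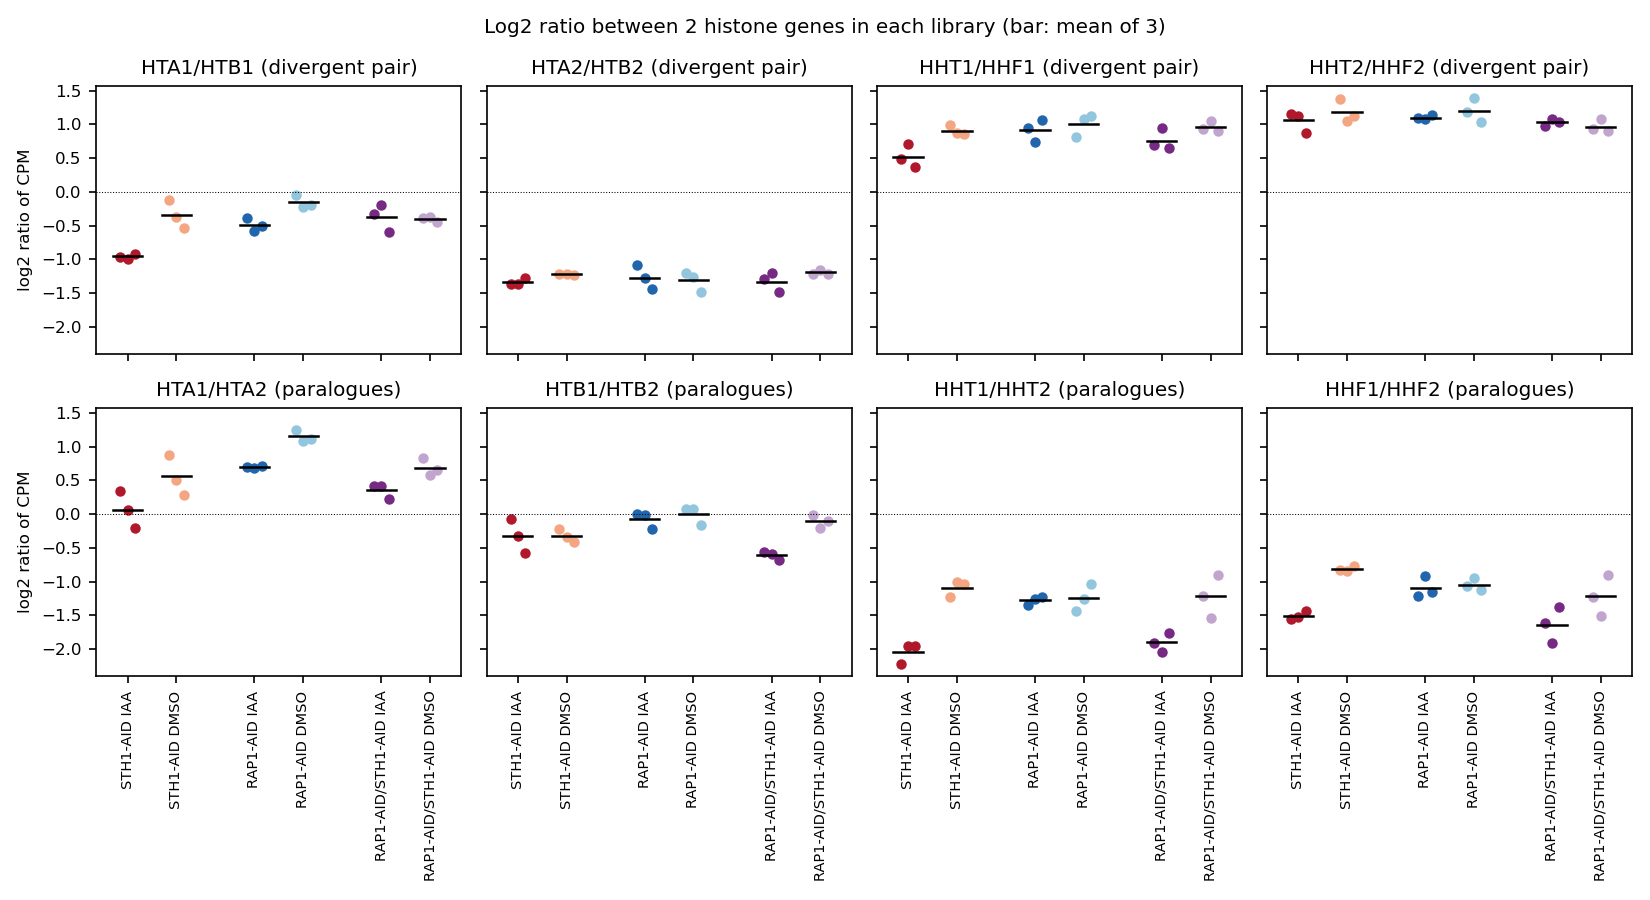
Log2 ratio of CPM between 2 histone genes in each library, for 4 divergent couples (top) and 4 paralogue pairs (bottom), in the IAA and DMSO libraries of the 3 degron strains; bars are means of 3. HTA1/HTB1 is at -0.95 on average in STH1-AID IAA cells and at -0.34 in STH1-AID DMSO cells, and HHT1/HHT2 is at -2.04 and -1.09.

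The DMSO controls already differed from WT, which matters because each control is also the baseline of a depletion. In STH1-AID DMSO against WT, 4 members were called lower (HTB1, HTB2, HHT2 and HHF2) and 1 higher (HHO1), against 19.4% and 18.5% of all genes. In RAP1-AID DMSO against WT, 6 were lower (HTA2, HTB1, HTB2, HHF1, HHT2 and HHF2) and HHO1 was higher, against 22.1% and 22.7%. In the comparison of RAP1-AID/STH1-AID DMSO against WT, HHF2 was lower and HHO1 higher, against 17% and 16.3%. Several of these calls rested on single libraries. In the STH1-AID control, HTB2 was lost without WT replicate 1 or any 1 of the DMSO libraries (adjusted p between 0.0525 and 0.141), and HHT2 without WT replicate 2 or DMSO replicate 2 or 3 (0.0529 to 0.0647). In the RAP1-AID control, HTA2 and HTB2 were lost without WT replicate 1 or DMSO replicate 1 or 3 (0.0582 to 0.115), and HTB1 without any single library but DMSO replicate 2 (0.0742 to 0.191). Summed over copies, H4 was lower in the STH1-AID, RAP1-AID and double-degron controls (-0.65, -0.8 and -0.4, edgeR adjusted p = 0.000764, 7.23e-05 and 0.0261). H3 and H2B were lower in the STH1-AID control (0.0422 and 0.00334) and the RAP1-AID control (0.0121 and 0.0233). The H2A sum passed in no control. It was -0.07 ± 0.17 in the RAP1-AID control (0.747), so the HTA2 call there did not extend to the sum.

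HHF2 was lower than WT in every control. It had 188, 195 and 176 CPM in STH1-AID DMSO, 183, 177 and 170 in RAP1-AID DMSO and 269, 272 and 189 in RAP1-AID/STH1-AID DMSO cells, against 301, 378 and 322 CPM in WT. The log2 fold changes were -0.84 ± 0.16 (edgeR adjusted p = 0.000298), -0.92 ± 0.16 (8.94e-05) and -0.45 ± 0.15 (0.0289). The last call was lost without WT replicate 2 (adjusted p = 0.137) or 3 (0.0546) or without RAP1-AID/STH1-AID DMSO replicate 3 (0.171). HHT1 and HTA1 did not pass against WT in any control.

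HHO1 stood above WT in every degron strain. It had 98.8, 92.2 and 87.4 CPM in STH1-AID DMSO, 86.4, 97.0 and 83.6 in RAP1-AID DMSO and 97.0, 83.2 and 97.5 in RAP1-AID/STH1-AID DMSO cells, against 66.1, 66.0 and 70.2 CPM in WT. The log2 fold changes were 0.46 ± 0.09, 0.40 ± 0.09 and 0.46 ± 0.09 (edgeR adjusted p = 0.000368, 0.000952 and 0.000451), and no control library reached the WT range. HTZ1 did not pass against WT in any control (-0.23 to -0.02). These 3 comparisons share the WT libraries. Cell cycle genes also differed in the STH1-AID control: against WT, 8 of 15 G1/S genes were higher (median 0.42), against 18.5% of all genes. Of 10 M/G1 genes, 8 were lower (median -0.59), against 19.4%, with none of either list in the other direction. In RAP1-AID DMSO against WT, 3 G1/S genes were higher and 1 lower, and 1 M/G1 gene was higher and 3 lower. Those counts do not stand out from the 22.7% of all genes higher and 22.1% lower. In the double-degron control, 5 G1/S genes were higher and 1 lower, and 1 M/G1 gene was higher, against 16.3% and 17%. Their part in the histone differences was not tested.

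In 5 of 7 conditions replicate 3 was lowest for most core genes. It was the lowest for 8 of 8 core genes in STH1-AID DMSO and RAP1-AID/STH1-AID IAA cells, for 7 in RAP1-AID/STH1-AID DMSO cells and for 6 in RAP1-AID IAA and RAP1-AID DMSO cells. It was the lowest for 3 in STH1-AID IAA cells, where replicate 1 was lowest for the other 5, and for 4 in WT. With replicate 3 of every condition left out, a setting added after seeing the data, 8 members were called lower on Sth1 depletion, 5 higher on co-depletion and 7 higher in the difference between these changes.

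The core genes varied together. Over the 21 libraries, the correlation of log2 CPM between 2 core genes ranged from 0.617 to 0.967 over 28 gene pairs, with a median of 0.823. The divergent couples stood at 0.967 (HTA2 and HTB2), 0.957 (HHT2 and HHF2), 0.912 (HHT1 and HHF1) and 0.906 (HTA1 and HTB1), against 0.828, 0.816, 0.755 and 0.672 for the H2B, H2A, H4 and H3 paralogues. All these points share the scaling of the libraries, and values within a condition are not independent of its treatment. Deviations from the condition means gave a median of 0.658.

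Among 5373 other protein-coding genes averaging 50 counts or more, these 5 were most like the mean log2 CPM of the 8 core genes over the 21 libraries: MLO50 (r = 0.958), PCL9 (0.938), which encodes a cyclin of the Pho85 kinase, COX12 (0.935), which encodes a subunit of cytochrome c oxidase, DSE3 (0.917), a gene expressed in daughter cells, and SIC1 (0.896), which encodes an inhibitor of the S phase cyclin kinase. PCL9 averaged 41.1 CPM in STH1-AID IAA, 103 in STH1-AID DMSO, 100 in RAP1-AID IAA, 102 in RAP1-AID DMSO, 133 in RAP1-AID/STH1-AID IAA, 134 in RAP1-AID/STH1-AID DMSO and 151 in WT. Like the core genes, it was lowest in Sth1-depleted cells. HTZ1 (r = -0.323) and HHO1 (r = -0.335) did not follow the core genes.

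Counts in the small lists that follow are to be read against all genes, of which 40.9% fell and 35.9% rose on Sth1 depletion and 37.5% fell and 32.2% rose on co-depletion. Of 6 activators of histone transcription, 4 fell and 1 rose on Sth1 depletion, with a median of -0.28. The gene that rose was YTA7, with a log2 fold change of 0.8 ± 0.12 (edgeR adjusted p = 4.99e-06). On co-depletion its change was 0.42 ± 0.12 (adjusted p = 0.00416). SPT10, whose product is the activator named above, had a log2 fold change of -1.0 ± 0.11 (edgeR adjusted p = 1.4e-07), and SWI6, a subunit of the G1/S factors SBF and MBF, of -0.87 ± 0.08. On co-depletion SPT10 (-0.85 ± 0.11) and SWI6 (-0.68 ± 0.08) were again lower, and no core histone gene was called lower there. The part of these activators in the histone changes was not tested. SPT21, the partner of Spt10, was level on Sth1 depletion (0.07 ± 0.12) and rose on co-depletion (0.64 ± 0.12, adjusted p = 0.000133), and this difference passed (0.57 ± 0.17, adjusted p = 0.0165).

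Of 6 repressors and their partners, 3 fell and 2 rose on Sth1 depletion, and 3 fell and 2 rose on co-depletion, shares near those of all genes. HIR3 (-0.89 ± 0.13 on Sth1 depletion and -0.62 ± 0.13 on co-depletion) and HPC2 (-0.81 ± 0.09 and -0.39 ± 0.09), subunits of the HIR complex, were lower. RTT106 (0.55 ± 0.09 and 0.98 ± 0.09) and ASF1 (0.48 ± 0.12 and 0.63 ± 0.12), chaperones that work with HIR, were higher (edgeR adjusted p of 0.000933 or less for these 8 values). On Rap1 depletion 2 of the 6 repressors passed, 1 in each direction, and the median of the activators was -0.05.

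Of 8 chaperones of H3-H4 and H2A-H2B, 3 rose and 5 fell on Sth1 depletion and 3 rose and 3 fell on co-depletion, again with both directions as among all genes. MSI1, a CAF-1 subunit (-1.51 ± 0.08 and -0.91 ± 0.07), and NAP1 (-1.01 ± 0.09 and -0.66 ± 0.09) were lower, and SPT16, a subunit of FACT (0.81 ± 0.10 and 0.90 ± 0.10), was higher. Around H2A.Z, SWR1, the ATPase that inserts it, rose with HTZ1 (1.03 ± 0.11 and 0.86 ± 0.11), while its chaperone gene CHZ1 (-1.08 ± 0.11 and -0.42 ± 0.11) and VPS72 (-0.39 ± 0.09 and -0.52 ± 0.09), another SWR1 complex subunit, fell (edgeR adjusted p of 0.00241 or less for all).

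CSE4, the H3 variant of centromeres, fell by 0.76 on the log2 scale on Sth1 depletion and by 0.48 on co-depletion, whereas the gene of its chaperone SCM3 rose by 0.52 and 0.32. RTT109, which encodes the acetyltransferase of newly made H3, fell by 0.96 and 0.37. HAT2, whose product acts with Hat1, the enzyme that acetylates new H4, rose by 0.68 on Sth1 depletion and fell by 1.07 on co-depletion. The difference was -1.75 ± 0.10 (edgeR adjusted p = 2.86e-10). HAT1 fell in both (-0.68 ± 0.15 and -0.66 ± 0.15).

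Because histone transcription is tied to S phase, 3 lists of cell cycle genes were examined beside the members. Of 11 G2/M genes, 10 rose on Sth1 depletion (median 0.71), against 35.9% of all genes, and 10 on co-depletion (median 0.49), against 32.2%, led by the mitotic cyclin gene CLB1 (1.46 ± 0.10 and 1.47 ± 0.10). They summed to 4492 to 5274 CPM in STH1-AID IAA, against 2704 to 3167 in STH1-AID DMSO cells, and to 3624 to 4627 CPM in RAP1-AID/STH1-AID IAA, against 2877 to 2972 in RAP1-AID/STH1-AID DMSO cells. The G2/M genes were thus higher in both strains, in which the core histone genes differed.

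The G1/S list differed more between the strains. Of 15 genes, 6 rose and 4 fell on Sth1 depletion (median 0.12), whereas 12 rose and 0 fell on co-depletion (median 0.67), and the difference between these changes was higher for 9 and lower for 0, against 19.6% and 10.5% of all genes. The S phase cyclin gene CLB6 (-1.16 ± 0.20 on Sth1 depletion, adjusted p = 2.66e-05, and 0.37 ± 0.19 on co-depletion, adjusted p = 0.0866) and CDC21, which encodes thymidylate synthase (-1.0 ± 0.11, adjusted p = 1.67e-07, and 0.07 ± 0.11, adjusted p = 0.563), were lower on Sth1 depletion and did not pass on co-depletion. Their differences were 1.53 ± 0.27 and 1.07 ± 0.16 (edgeR adjusted p = 0.000292 and 4.47e-05). SVS1 (-0.34 ± 0.15) and CLB5 (0.1 ± 0.11) did not pass on Sth1 depletion and rose on co-depletion (1.16 ± 0.15 and 0.77 ± 0.11). Their differences were 1.49 ± 0.21 and 0.67 ± 0.15 (edgeR adjusted p = 2.92e-05 and 0.00236). Not every G1/S gene followed the histones: RFA1 (0.87 ± 0.10), PCL1 (0.83 ± 0.10) and CDC9 (0.75 ± 0.13) rose on Sth1 depletion. Their changes on co-depletion differed from these by -0.14, -0.06 and 0.00. The list summed to 2968 to 3336 CPM in STH1-AID IAA, against 2689 to 2840 in STH1-AID DMSO cells, and to 3533 to 4462 CPM in RAP1-AID/STH1-AID IAA, against 2372 to 2778 in RAP1-AID/STH1-AID DMSO cells.

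Of 10 M/G1 genes, 5 rose and 2 fell on Sth1 depletion (median 0.37). The 2 that fell were PCL9 (-1.33 ± 0.13) and SIC1 (-0.64 ± 0.11), both also among the genes most like the core histones, while CDC6 (0.95 ± 0.15), CTS1 (0.78 ± 0.16) and DSE2 (0.59 ± 0.16) were among those that rose. On co-depletion 7 rose and 0 fell (median 0.64). On Rap1 depletion 2 G1/S genes passed, 1 in each direction, and the medians were -0.01 for G1/S, -0.10 for G2/M and -0.15 for M/G1 genes. The part of cell cycle stage in the histone differences was not tested.

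**Figure D4:**
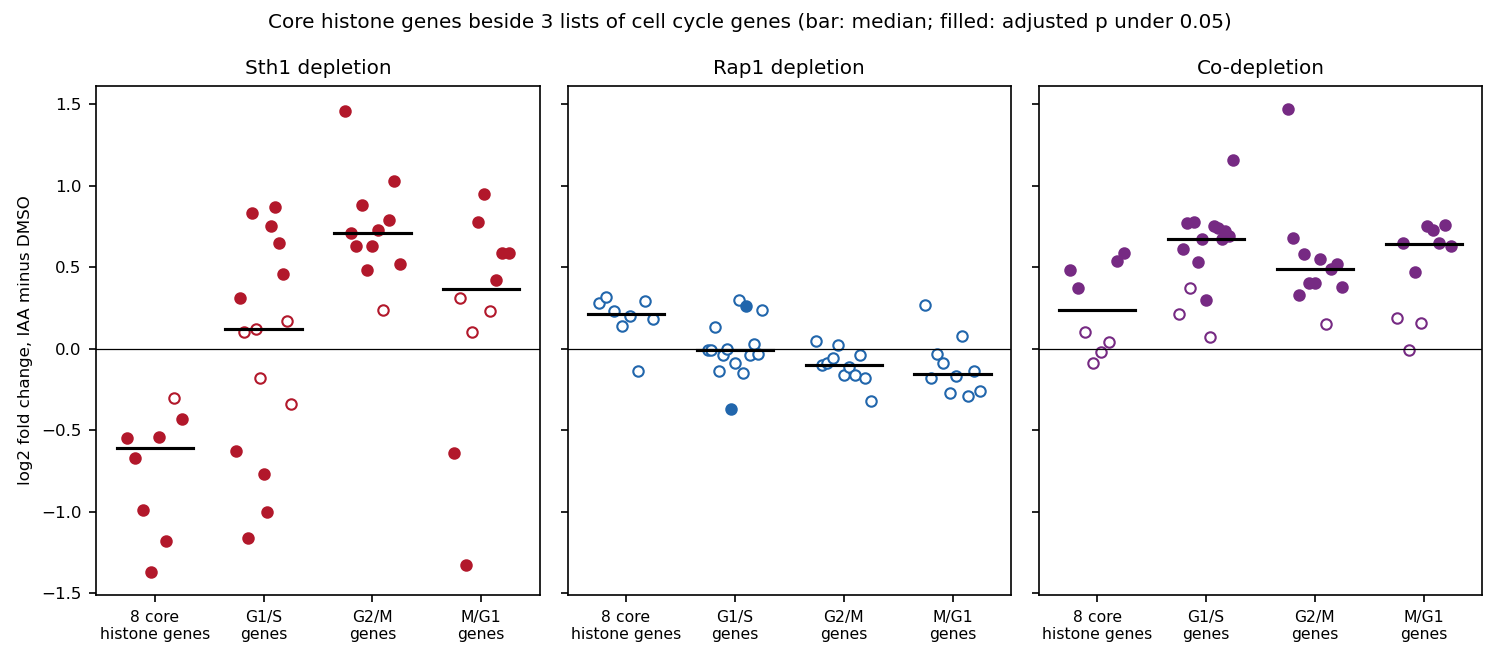
Log2 fold change, IAA minus DMSO, of the 8 core histone genes and of 3 lists of cell cycle genes in the 3 degron strains; each point is a gene, filled where the edgeR adjusted p is under 0.05, and bars are medians. On Sth1 depletion the core histone genes have a median of -0.61 and the G2/M genes of 0.71, and on co-depletion the medians are 0.23 and 0.49.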

How the data were processed

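The 21 libraries were quantified by the authors, who trimmed reads with cutadapt 1.9.1 and used RSEM 1.3.0 with STAR 2.5.2a on the R64 annotation. The deposited expected counts are not normalised between libraries and divide multiply aligned reads. The TPM values deposited by the authors are scaled to gene length and library total, and served for levels between genes and as an alternative scale. Totals per library had a median of 20675890. No spike-in entered these files.

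Expected counts were rounded and fitted with edgeR 4.0.16 (TMM, filter on low counts by condition, quasi-likelihood test, 1 coefficient per condition, with 14 degrees of freedom left). Adjustment was over the 5742 protein-coding genes among 6164 features kept. Alternatives were DESeq2 1.42.0 and its size factors, scaling to library totals, other filters and thresholds, a replicate block, fits of the compared libraries alone, summed paralogue counts, and leaving out each library. Single-library ratios used SciPy 1.17.1.

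The members and lists were chosen with earlier results of these data known. Named were the 10 members, STH1 and RAP1, up to 4 genes a list with the largest absolute fold change on Sth1 depletion or co-depletion, and the 5 genes most correlated with the core histones. Same-numbered RAP1-AID libraries deviated together (correlations 0.166, 0.388 and 0.281), so blocked values are given there. Same-numbered libraries of the other degron strains did so less evenly, and their blocked results are given at the end. Sequences and gene models came from RefSeq, R64. P-values measure the spread between labelled biological replicates.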

Additional observations from a re-analysis of the deposited data

Results flagged for a closer look

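The responses below differed between strains by a test of the difference itself (edgeR interaction contrast, adjusted over all genes). For core histone genes, the change with IAA in RAP1-AID/STH1-AID cells exceeded that in STH1-AID cells, on the log2 scale, by 1.28 for HHT1, 1.22 for HTA1, 1.09 for HHF1, 1.04 for HTB2, 1.04 for HTA2, 1.02 for HHT2 and 0.84 for HHF2, with adjusted p-values between 1.3e-05 and 0.00703. For HTZ1, the change in RAP1-AID/STH1-AID cells exceeded that in RAP1-AID cells by 0.81 (adjusted p = 0.000112). With 3 libraries a condition, no test for outlying libraries was made.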

How the results depend on the processing

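Counts of histone genes called, out of 10, moved as follows. With a log2 fold change above 1 required, 2 were lower and 0 higher on Sth1 depletion, 0 higher on co-depletion, 0 higher and 0 lower in each control against WT, and 0 higher in co-depletion minus Rap1 depletion. Scaled to library totals, 4 were higher on Rap1 depletion, 1 higher on co-depletion, 3 lower in the RAP1-AID control, 0 lower in the RAP1-AID/STH1-AID control and 3 lower in co-depletion minus Rap1 depletion. At an adjusted p of at most 0.01, 2 were lower in the STH1-AID control, 3 in the RAP1-AID control, and 0 in that of the double-degron strain. DESeq2's size factors, DESeq2's test and a mean of at least 10 counts each gave 2 higher in co-depletion minus Rap1 depletion. Without replicate 3 of every condition, a setting added after seeing the data, 0 were lower in the RAP1-AID/STH1-AID control.

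With the replicate block, 2 were higher on Rap1 depletion and 4 lower in the RAP1-AID/STH1-AID control. The labels give no more than a shared number. Same-number correlations were 0.172, 0.299 and 0.045 in STH1-AID cells, where IAA replicate 3 was nearer DMSO replicate 1 (0.079). In RAP1-AID/STH1-AID cells they were 0.059, 0.391 and 0.336, against -0.357 to 0.032 for unlike numbers. Libraries numbered 2 and 3 thus deviated together there, about as in RAP1-AID cells. The block left 6 members called higher on co-depletion. The block called HHF2 lower on Sth1 depletion (8 members) and HTB1 in the difference between co-depletion and Sth1 depletion (8 members).

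Leaving out each library in turn gave 0 to 1 higher on Rap1 depletion, 2 to 4 lower in the STH1-AID control, 3 to 6 in the RAP1-AID control and 0 to 2 lower for the RAP1-AID/STH1-AID control, and 1 to 3 higher in co-depletion minus Rap1 depletion. The 1 on Rap1 depletion was HHF1, without RAP1-AID IAA replicate 3. In the STH1-AID control, 2 remained without DMSO replicate 2 or 3. In the RAP1-AID control, 3 remained without WT replicate 1 or DMSO replicate 1 or 3. In the RAP1-AID/STH1-AID control, 0 remained without WT replicate 2 or 3 or DMSO replicate 3, and 2 were called without WT replicate 1 or DMSO replicate 1 or 2. The 3 in co-depletion minus Rap1 depletion came without RAP1-AID/STH1-AID IAA replicate 3, and 2 were called without RAP1-AID DMSO replicate 3, RAP1-AID IAA replicate 2, RAP1-AID/STH1-AID DMSO replicate 1 or 3, or RAP1-AID/STH1-AID IAA replicate 2.

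Among single genes and ratios, 1431 of 1568 alternative values stayed on the same side of the threshold, uncalled values and ratios included, 93 lost a call and 43 gained one. Of values called in neither fit, 55 changed sign. The 1 reversal was HHT1 on co-depletion, 0.42 with paralogue counts summed, where the sum also holds HHT2. The 24 ratios kept their sign with TPM.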
